A study of Mus musculus with 9 samples.

Results

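Acetylation of histone H3 at lysine 27 (H3K27ac) was compared with trimethylation of histone H3 at lysine 4 (H3K4me3) in lung endothelial cells isolated from wild-type mice. The members are the 114890 regions of the H3K27ac peak list and the 56235 regions of the H3K4me3 peak list, together 171125 of the 1309635 regions in the deposited table, with the reads of both libraries. The 9 libraries of the series, 1 for each of 8 histone marks and 1 for IgG, were made by ACT-seq, in which an antibody to the mark brings a Tn5 transposase fused to Protein A/G to the chromatin, where it cuts and tags the DNA. All come from cells of the same description, with no treatment named, and the strain, age and number of mice are not stated in the labels. With 1 library for each mark there is no replicate error and no test, and every interval below covers counting error over peaks, genes or reads alone.

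H3K27ac is written by the acetyltransferases p300 and CBP at active promoters and at active enhancers. H3K4me3 is written mainly at promoters by SET1 and MLL complexes, which favour CpG-rich DNA, and it can be present at promoters of genes that are not transcribed. A region with H3K27ac and without H3K4me3, far from a gene start, is therefore commonly read as a candidate enhancer, and a start with H3K4me3 alone as an inactive or poised one.

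Promoters of 4 genes are shown, each an example from 1 class of gene start, because the classes differed in CpG content. Each line gives the 250 bases before a start listed by RefSeq for GRCm38.p6, 5′ to 3′ on the gene's strand, with every CpG in capitals. Kdr, the main VEGF receptor of endothelium, had both marks around this start (chr5:75978456-75978705, minus strand, 16 CpGs). Gp9, a platelet glycoprotein gene, had H3K27ac alone (chr6:87777820-87778069, plus strand, 2 CpGs). Dbn1, which encodes the actin-binding protein drebrin, had H3K4me3 alone (chr13:55488077-55488326, minus strand, 23 CpGs). Ackr1, an atypical chemokine receptor gene of venules, had neither (chr1:173333504-173333753, minus strand, 3 CpGs). Gp9 and Dbn1 are extremes, the most covered genes of their classes, with 910 and 1877 bp against class medians of 172 and 157 bp. Dbn1 was chosen after its values were seen.
Kdr: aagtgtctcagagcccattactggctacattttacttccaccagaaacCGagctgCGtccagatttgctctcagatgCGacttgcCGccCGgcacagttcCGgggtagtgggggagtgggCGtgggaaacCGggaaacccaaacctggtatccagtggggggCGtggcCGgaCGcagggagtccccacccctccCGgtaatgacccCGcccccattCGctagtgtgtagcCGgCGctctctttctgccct
Gp9: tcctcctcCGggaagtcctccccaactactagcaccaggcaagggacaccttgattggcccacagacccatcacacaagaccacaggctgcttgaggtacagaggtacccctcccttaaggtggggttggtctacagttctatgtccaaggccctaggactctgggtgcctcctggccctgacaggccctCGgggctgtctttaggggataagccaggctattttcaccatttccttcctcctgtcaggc
Dbn1: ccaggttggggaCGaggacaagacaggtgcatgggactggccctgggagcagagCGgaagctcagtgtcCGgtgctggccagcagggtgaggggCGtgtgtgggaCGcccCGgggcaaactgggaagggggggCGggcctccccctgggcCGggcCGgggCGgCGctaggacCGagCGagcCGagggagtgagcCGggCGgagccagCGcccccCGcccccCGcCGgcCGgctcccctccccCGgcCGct
Ackr1: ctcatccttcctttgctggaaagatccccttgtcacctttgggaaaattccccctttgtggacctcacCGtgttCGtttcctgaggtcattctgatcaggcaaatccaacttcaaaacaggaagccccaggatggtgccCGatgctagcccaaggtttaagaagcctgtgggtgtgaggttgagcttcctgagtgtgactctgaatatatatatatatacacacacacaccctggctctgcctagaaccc

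The H3K27ac library held 2533242 reads, the H3K4me3 library 1477463 and the IgG library 365999. After the joined lists were separated, 112396 H3K27ac and 54574 H3K4me3 peaks lay on chromosomes 1 to 19, X and Y, and all peak counts below are over these. Over bases that no region of another identifier covered, the H3K27ac list held 44.2 H3K27ac CPM (reads scaled to 1000000 of the library) for each kb, 0 of H3K4me3 and 22.3 of IgG. The H3K4me3 list held 180 H3K4me3 CPM for each kb, 13.4 of H3K27ac and 28.4 of IgG. Each list takes its name from the library densest in it, so that order is set by the naming and supports nothing; the margin over IgG was smaller for H3K27ac. IgG reads lay in 903 of 578465 identifiers, so an IgG density rests on few regions.

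H3K27ac peaks were more numerous and mostly separate from H3K4me3, whereas most H3K4me3 peaks met an H3K27ac peak. Of the H3K27ac peaks, 34296 shared at least 1 base with an H3K4me3 peak, 30.5% (95% exact binomial interval 30.2 to 30.8%). Of the H3K4me3 peaks, 29235 shared a base with an H3K27ac peak, 53.6% (53.1 to 54.0%). In bases, H3K27ac covered 27.1 Mb, H3K4me3 20.6 Mb and both together 9.90 Mb, which is 36.5% of the H3K27ac bases and 48.1% of the H3K4me3 bases. Where the marks met, H3K27ac lay within H3K4me3 more often than the reverse: 42.7% of shared H3K27ac peaks lay wholly inside an H3K4me3 peak, and 22.95% of shared H3K4me3 peaks lay wholly inside an H3K27ac peak. Of the shared H3K4me3 peaks, 4665 (16.0%) held 2 or more H3K27ac peaks, up to 5, while 546 shared H3K27ac peaks (1.59%) held 2 or more of H3K4me3.

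Shared peaks were wider than peaks of 1 mark in both lists. The median width was 312 bp for shared H3K27ac peaks and 160 bp for H3K27ac-only peaks. It was 352 bp for shared H3K4me3 peaks and 157 bp for H3K4me3-only peaks, and 157 bp is the narrowest width in that list. Of the 25339 H3K4me3-only peaks, 22249 (87.8%) had that minimum width, against 29.0% of the shared ones. For H3K27ac, whose minimum is 108 bp, 26.6% of the H3K27ac-only and 4.95% of the shared peaks were at the minimum. The share of peaks that met the other mark rose from 7.55% at minimum width to 98.4% over 1000 bp for H3K27ac, and from 27.6% to 99.0% for H3K4me3. Peaks over 1 kb were mainly of H3K4me3: 5254 shared and 54 H3K4me3-only peaks passed 1 kb, against 373 shared and 6 H3K27ac-only peaks.

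**Figure D1:**
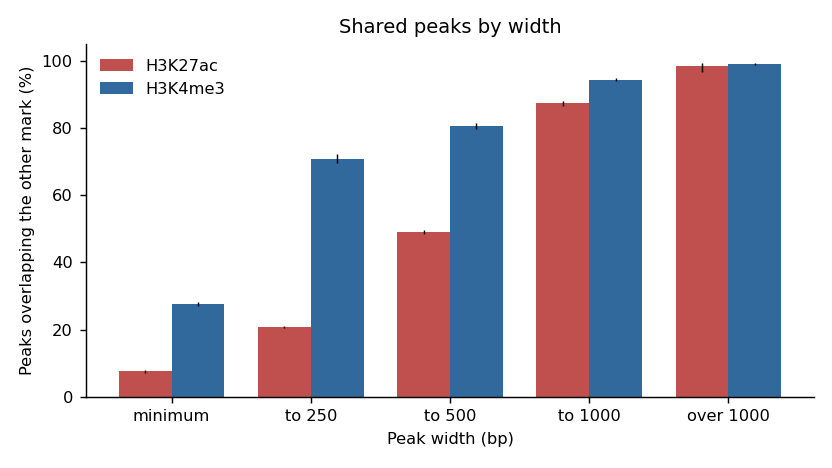
Share of H3K27ac and H3K4me3 peaks (%, vertical axis) that overlap a peak of the other mark by at least 1 base, by peak width in bp (horizontal axis, from the minimum width of the list to over 1000 bp); lines on the bars are 95% exact binomial intervals. The share rises with width in both lists, to 98.4% and 99.0% over 1000 bp.

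Among H3K4me3-only peaks, those of minimum width held H3K4me3 reads at a lower density than the wider ones. The list takes its name from the H3K4me3 library, so an H3K4me3 density above that of IgG supports nothing here. Over unshared bases, H3K4me3-only peaks of minimum width held 70.1 H3K4me3 CPM for each kb, and IgG stood at 22.3. Wider H3K4me3-only peaks held 201, with IgG at 58.2, and wider shared H3K4me3 peaks held 266, with IgG at 23.3. H3K27ac density did not follow width in the same way: H3K27ac-only peaks held 44.7 H3K27ac CPM for each kb at minimum width and 44.6 above it, with IgG at 14.98 and 21.8. Shared H3K27ac peaks had 0.162 Mb of unshared bases, over which H3K27ac stood at 35.6, H3K4me3 at 14.2 and IgG, the highest, at 119.

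The 5 widest shared H3K4me3 peaks lay in or at the ends of Pdgfb, Foxo1, Zfp703, Tsc22d2 and Cpeb2. The widest, 3099 bp at chr15:80011678-80014776, lay inside Pdgfb, which encodes the platelet-derived growth factor B chain that endothelium uses to recruit pericytes. That of Foxo1, a transcription factor that restrains endothelial growth, was 3027 bp and lay at its start. Among H3K27ac peaks the widest shared one, 1930 bp, lay at the start of Rmi1 and reached into its neighbour Hnrnpk. Foxo1 also held one of 1692 bp, at 59.6 kb from its listed start. The widest H3K4me3-only peak was 1968 bp long (chr8:128357940-128359907) at the start of Nrp1, a co-receptor for VEGF and semaphorins. It was followed by 1877 bp at Dbn1, 1824 bp at Bcar1, an adaptor of focal adhesions, and 1648 bp at Setd1b, an H3K4 methyltransferase. Each of those at Nrp1 and Dbn1 also met peaks of 5 or 6 of the 6 other acetylation marks. The widest H3K27ac-only peak, 1283 bp at chr15:25435986-25437268, lay outside genes, 22.2 kb from the nearest listed start, that of Basp1. One of 1049 bp lay inside Sema4d, a semaphorin gene, at 20.5 kb from the nearest listed start.

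Peaks with both marks gathered at gene starts, and H3K27ac-only peaks were the class least often there. Within 2 kb of a listed start of a protein-coding gene lay 41.5% of shared H3K27ac peaks (41.0 to 42.0%) and 35.8% of shared H3K4me3 peaks (35.2 to 36.3%). The same windows held 12.5% of H3K4me3-only peaks (12.1 to 12.9%) and 3.69% of H3K27ac-only peaks (3.56 to 3.82%), and they cover 2.68% of the extent of the chromosomes. H3K27ac-only peaks lay inside genes in 51.0% of cases and outside genes in 40.4%. Their median distance to a listed start was 44974 bp, against 7667 bp for shared H3K27ac peaks, 30263 bp for H3K4me3-only and 11550 bp for shared H3K4me3 peaks. RefSeq starts are listed here for 17491 of 21883 protein-coding genes and for none on chromosome 18, so these distances are upper limits.

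Read the other way, the share of peaks that met the other mark was highest at starts, although most shared peaks lay elsewhere. Of H3K27ac peaks at a start, 83.2% were shared, against 18.2% of those inside genes and 18.2% of those outside. H3K4me3 peaks met H3K27ac in 76.7% of cases at a start, 45.3% inside genes and 41.9% outside. Within 2 kb of other annotated gene ends, including both ends of genes without a listed start, 52.1% of H3K27ac and 59.5% of H3K4me3 peaks were shared. The median H3K4me3 peak was 725 bp at a start and 157 bp inside or outside genes, while the median H3K27ac peak was 287 bp at a start, 178 bp inside and 181 bp outside genes.

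The profile around starts differed in reach more than in height. H3K27ac peaks covered at most 45.6% of the 21262 listed starts, in the 50 bp bin centred 25 bp upstream, and coverage stayed above 50% of that height from 225 bp upstream to 275 bp downstream. H3K4me3 peaks covered at most 49.7%, in the bin centred 25 bp downstream, and stayed above 50% of that height from 275 bp upstream to 675 bp downstream. The marks therefore began at nearly the same place upstream and parted downstream, inside the gene. At 1 kb downstream, H3K4me3 covered 11.8% of starts and H3K27ac 4.20%, and at 1 kb upstream 4.54% and 3.12%.

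**Figure D2:**
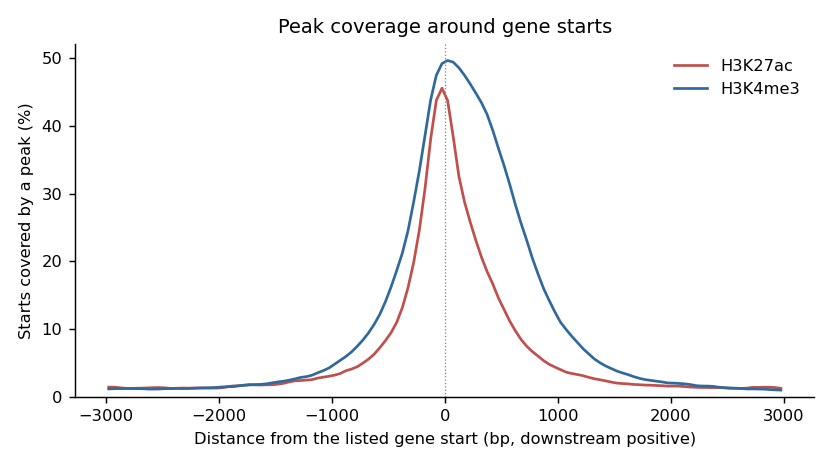
Share of 21262 listed gene starts (%, vertical axis) covered by a peak of H3K27ac or H3K4me3 in 50 bp bins, against the distance from the start in bp (horizontal axis, downstream positive). H3K27ac reaches 45.6% and H3K4me3 49.7%, and H3K4me3 extends farther downstream.

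Over all peaks, each of the other 6 acetylation marks of the series met a larger share of H3K27ac-only than of H3K4me3-only peaks, but for H3K9ac and H3K23ac the order turned among wider peaks. H3K18ac peaks met 64.1% of H3K27ac-only and 9.23% of H3K4me3-only peaks, H4K8ac 56.9% and 10.6%, and H3K14ac 55.8% and 15.8%. H2AK5ac met 24.9% and 2.74%, H3K23ac 15.5% and 6.72%, and H3K9ac 12.2% and 5.11%. H3K9ac and H3K23ac were thus sparse on H3K27ac alone, although they met 64.4% and 66.4% of the shared H3K27ac peaks. None of the 6 marks met 17.6% of H3K27ac-only peaks, 68.7% of H3K4me3-only peaks, 1.45% of shared H3K27ac and 1.37% of shared H3K4me3 peaks. Among peaks wider than the minimum, H3K18ac met 78.6% of H3K27ac-only and 27.8% of H3K4me3-only peaks. H3K9ac there met 15.8% of H3K27ac-only and 26.0% of H3K4me3-only peaks, and H3K23ac met 19.7% and 28.9%. At starts these pairs were 18.4% and 16.4% for H3K9ac and 20.6% and 19.3% for H3K23ac. Away from starts, H3K9ac met 56.4% of shared H3K27ac peaks and 11.99% of H3K27ac-only ones, so the gap was also present there.

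**Figure D3:**
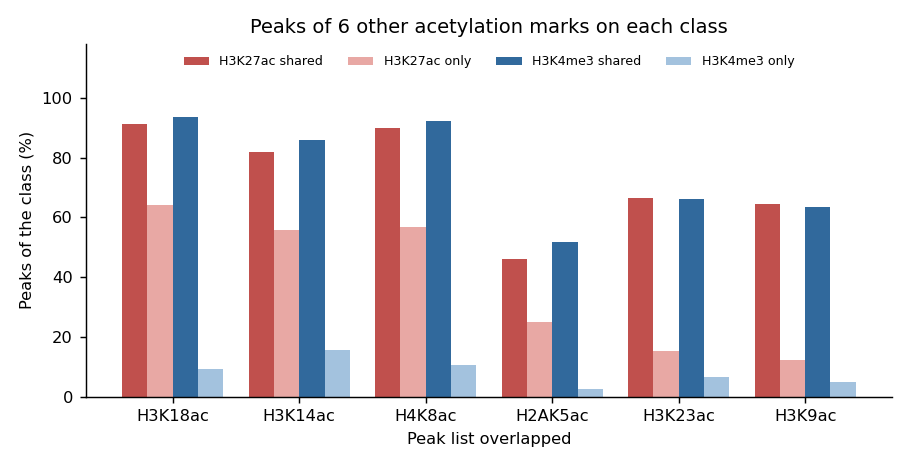
Share of the peaks of each class (%, vertical axis) that overlap a peak of 6 other acetylation marks (horizontal axis), for H3K27ac and H3K4me3 peaks shared or of 1 mark. H3K18ac meets 64.1% of H3K27ac-only and 9.23% of H3K4me3-only peaks.

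Most protein-coding genes had both marks at the start or neither. Of 17491 genes with a listed start, 10649 had H3K27ac within 2 kb (60.9%) and 10605 had H3K4me3 (60.6%). Both were present at 9824 genes (56.2%), H3K27ac alone at 825 (4.72%), H3K4me3 alone at 781 (4.47%) and neither at 6061 (34.7%). At genes with both, the window held a median of 627 bp of H3K27ac and 1057 bp of H3K4me3. More bases of H3K27ac than of H3K4me3 were found at 1539 genes, 8.80%. A single mark was mostly a short one: the median was 172 bp at genes with H3K27ac alone and 157 bp, again 1 peak of minimum width, at genes with H3K4me3 alone. At least 500 bp were covered at 38 of the former and 132 of the latter. Of the 4392 genes without a listed start, read at both annotated ends, 2451 had both marks, 326 H3K27ac alone, 250 H3K4me3 alone and 1365 neither.

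**Figure D4:**
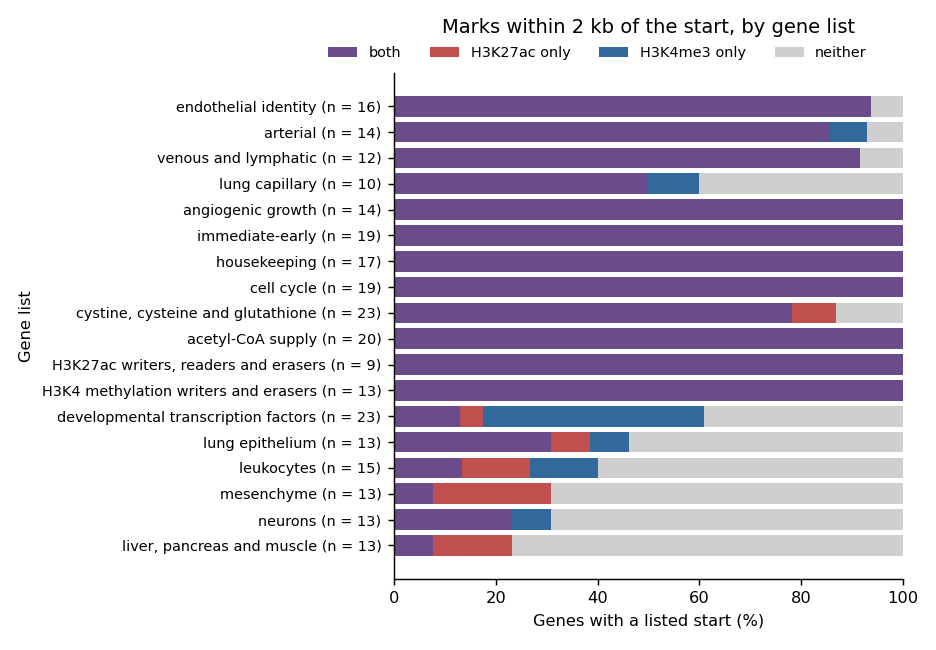
Share of the genes of 18 lists (%, horizontal axis; number of genes with a listed start in brackets) that carry both marks, H3K27ac alone, H3K4me3 alone or neither within 2 kb of the start. Endothelial lists are mostly in the class with both marks, and the developmental transcription factors hold 10 of 23 genes with H3K4me3 alone.

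Endothelial genes mostly carried both marks. In the endothelial identity list 15 of the 16 genes with a listed start had both, against 56.2% of all such genes, and 1, the tight-junction gene Cldn5, had neither. H3K4me3 covered more bases than H3K27ac at all 15, with medians over the list of 1205 and 728 bp, against 604 and 320 bp over all genes with a start. Kdr had 1027 bp of H3K27ac and 1742 bp of H3K4me3, and its widest peaks, of 601 and 1341 bp, overlapped at the start. Erg, an ETS factor that maintains endothelial identity, had 461 and 743 bp. Egfl7, a secreted endothelial factor, had 874 and 2714 bp and the list's largest difference towards H3K4me3.

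The 16 identity genes without a listed start were read at both ends, and 14 of them had both marks, against 55.8% of all genes so read. Cdh5, the adherens junction cadherin of endothelium, had 1019 bp of H3K27ac and 1902 bp of H3K4me3, and Pecam1, a junctional adhesion molecule, had 784 and 1457 bp, or 284 and 411 bp within 1 kb. S1pr1, the sphingosine-1-phosphate receptor, had 1309 and 2307 bp, the most covered of the list. Vwf, the clotting factor stored in endothelium, had 370 bp of H3K27ac and 0 of H3K4me3 at its ends. It held 11 H3K27ac-only peaks within the gene. Icam2, an adhesion molecule gene, had neither mark at its ends, and held 3 H3K27ac and 2 H3K4me3 peaks within the gene. Nos3, the endothelial nitric oxide synthase, had 1025 bp of H3K27ac and 834 bp of H3K4me3.

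Arterial, venous and lymphatic genes also mostly had both marks. Both were found at 12 of 14 arterial genes and 11 of 12 venous and lymphatic genes, against 56.2% of all genes. Jag2, a Notch ligand, had H3K4me3 alone (471 bp), a class that held 4.47% of all genes. Jag1, another Notch ligand, had 1264 bp of H3K27ac and 2306 bp of H3K4me3, and Hes1, a Notch target without a listed start, had 1367 and 2133 bp. Nrp1 had 384 and 2263 bp, the list's largest difference towards H3K4me3; its nearest H3K27ac peak ended upstream of the 1968 bp H3K4me3-only peak. Gja5, the arterial connexin gene, had neither at its start. Ephb4, the venous ephrin receptor, had 779 and 1778 bp, and Prox1, the master regulator of lymphatic fate, had 1115 and 1649 bp. Pdpn, the lymphatic podoplanin gene, had 108 bp of H3K27ac and 1181 bp of H3K4me3.

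Of 10 lung capillary markers with a listed start 5 had both marks, against 56.2% of all such genes, and 4 of the 6 read at both ends did. Sgk1, a kinase gene with 6 listed starts, had 2766 bp of H3K27ac and 2274 bp of H3K4me3, and was the only gene of the list with more H3K27ac. Apln, the apelin ligand, had 500 and 1854 bp. Car4, Prx, Cd36 and Hpgd had neither mark within 2 kb of the start, although Prx held 3 peaks of each mark within the gene and Cd36 held 4 of H3K27ac and 1 of H3K4me3. Plvap, the fenestral diaphragm protein, read at both ends, had 1180 and 2209 bp.

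Genes of growth, immediate-early response and basic cell functions with a listed start all had both marks, counted over the joined windows of a gene's starts. These were 14 angiogenic growth, 19 immediate-early, 17 housekeeping, 19 cell cycle and 20 acetyl-CoA supply genes. Of all genes with a listed start, 56.2% had both. Read at both ends, 1 of 5 housekeeping genes had H3K4me3 alone, against 5.69% of all genes so read. The other members so read had both marks, against 55.8%. Jun, an AP-1 subunit, had 1024 bp of H3K27ac and 2882 bp of H3K4me3. Polr2a, the large subunit of RNA polymerase II, had 1306 and 1553 bp. Pdk4, a kinase that switches off pyruvate dehydrogenase, had 818 bp of H3K27ac and 747 bp of H3K4me3, and Gusb, a lysosomal enzyme, 814 and 759 bp; these were the genes of their lists that leaned farthest to H3K27ac. Mpc2, a subunit of the mitochondrial pyruvate carrier, had 853 and 2048 bp.

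Of 23 genes of cystine, cysteine and glutathione metabolism, 18 had both marks, 2 H3K27ac alone and 3 neither, against 56.2%, 4.72% and 34.7% of all genes. Slc7a11, the cystine importer subunit, had 600 bp of H3K27ac and 705 bp of H3K4me3 at its listed start, which lies inside the annotated gene. Txnrd1, thioredoxin reductase, had 1061 and 1840 bp, and Txn1, thioredoxin, had 1195 and 1431 bp. Sqor, the mitochondrial sulfide-oxidising enzyme, had 315 bp of H3K27ac, 0 of H3K4me3 at its listed start, and 7 H3K27ac-only peaks within the gene. That start lies inside the gene, and at its annotated 5′ end a shared H3K4me3 peak of 578 bp and an H3K27ac peak of 478 bp were found, 6.06 and 6.14 kb away. Ggt1, a glutathione hydrolase, had 108 bp of H3K27ac alone.

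The enzymes of both marks were themselves marked. All 9 genes of H3K27ac writers, readers and erasers and all 13 of H3K4 methylation with a listed start had both, against 56.2% of all genes. Ep300, which encodes p300, had 1338 bp of H3K27ac and 1816 bp of H3K4me3, each as 1 peak across the start. Kmt2d, an H3K4 methyltransferase of enhancers, had 993 and 2491 bp. Setd1b, read at both ends, had 18 bp of H3K27ac and 1944 bp of H3K4me3. Ash2l, a core subunit of H3K4 methyltransferase complexes, had 240 bp of H3K27ac and 0 of H3K4me3 at its ends, but an H3K4me3 peak of 1413 bp lay inside it at 6.07 kb from the nearer end.

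Developmental transcription factors of other tissues with a listed start had H3K4me3 alone more often than all genes. The 8 read at both ends, 1 of them with H3K4me3 alone, are too few to show whether they differ. Of 23 with a listed start, 10 had H3K4me3 alone, against 4.47% of all genes, 3 had both, 1 had H3K27ac alone and 9 had neither. Of the 8 read at both ends, 1 had H3K4me3 alone, 1 had both, 2 had H3K27ac alone and 4 had neither. Over all genes so read, these shares were 5.69%, 55.8%, 7.42% and 31.1%. The covered lengths were short. Neurog2, a neuronal factor, had 315 bp of H3K4me3, Pax2 and Six2, kidney factors, 314 bp each, and Lhx3, a pituitary factor, 180 bp. Pax6, Olig2, Lhx2, Foxa1, Emx2 and Isl1 each had 157 bp, a single peak of minimum width. With peaks of minimum width left out, or with at least 200 covered bases required, 3 of the 23 had H3K4me3 alone. Dlx2, a forebrain factor, had both marks, 679 and 1080 bp, and Eomes, a T-box factor, 202 and 914 bp.

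Markers of other cells the isolation could hold, where they have a listed start, had both marks less often than the 56.2% of all genes. Both were found at 4 of 13 lung epithelial, 2 of 15 leukocyte, 1 of 13 mesenchymal, 3 of 13 neuronal and 1 of 13 liver, pancreas and muscle genes, and neither at 7, 9, 9, 9 and 10, against 34.7% of all genes. Read at both ends, 2 of 6 epithelial, 2 of 6 leukocyte, 4 of 6 mesenchymal, 1 of 5 neuronal and 0 of 5 liver, pancreas and muscle genes had both, against 55.8% of all genes so read. The small counts moved with the settings: with at least 200 covered bases leukocytes had 0, with a window of 5 kb mesenchyme had 4, and without peaks of minimum width neurons and leukocytes had 1 each and the liver, pancreas and muscle list had 0. Sftpc, the surfactant protein C gene of alveolar type II cells, had 503 bp of H3K27ac and 1520 bp of H3K4me3 at its ends, and Abca3, a surfactant lipid transporter, 884 and 1256 bp. Sftpb, Sftpa1, Nkx2-1 and Ager had neither at the start. Cd14 and Spi1, myeloid genes, had both, whereas Ptprc, the common leukocyte antigen, and the T cell gene Cd3e had neither at the start. Acta2, the smooth muscle actin, had 685 bp of H3K27ac and 0 of H3K4me3, and Col1a2, Pdgfra and Des had neither at the start. Wnt2, a Wnt ligand, had 601 and 748 bp, and Col1a1, a collagen chain, had 560 and 528 bp at its ends. Tagln, which encodes the smooth muscle protein transgelin, also had both at its ends, with 350 bp of H3K27ac. What part such cells had in the peaks was not tested.

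Over all genes with a listed start, the 5 that leaned farthest to H3K27ac were Gp9, Crybb3, Rgs8, Sema4d and Gpr35. Gp9 had 910 bp of H3K27ac and 0 of H3K4me3, in 3 peaks, the first of them across the start. Crybb3, a lens crystallin, had 885 bp more of H3K27ac, and Rgs8, a regulator of G-protein signalling, 870 bp more, with 1 H3K4me3 peak of minimum width each. Gpr35, an orphan receptor gene, had 837 bp against 0. Sema4d had 861 bp more around its listed starts, but a shared H3K4me3 peak of 1264 bp lay across its annotated 5′ end, outside those windows, and is not counted there. The 5 that leaned farthest to H3K4me3 were Bcar1, Gse1, Dnmt3a, Frmd4a and Bmp6. Bcar1 had 854 bp of H3K27ac and 3722 bp of H3K4me3, and Gse1 1331 and 4069 bp. Dnmt3a, a DNA methyltransferase, had 350 and 2772 bp, and Bmp6, a BMP ligand, had 200 bp of H3K27ac beside 1 H3K4me3 peak of 2445 bp. These differences sum over all listed starts of a gene.

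Among genes with 1 mark alone, the most covered by H3K4me3 were Dbn1 (1877 bp), Mdga2 (1555 bp), Zfp467 (1537 bp), Ocln (1479 bp) and Arhgap20 (1470 bp), named after their values were seen. Ocln encodes occludin of tight junctions. Myb, a haematopoietic transcription factor, had 1231 bp of H3K4me3 and 0 of H3K27ac. The most covered by H3K27ac alone after Gp9 and Gpr35 were Myo18a (831 bp), Tex52 (712 bp) and Acta2. These genes were picked as among the most covered of their classes and do not stand for them. The class medians were 157 bp for H3K4me3 alone and 172 bp for H3K27ac alone, against 1057 and 627 bp of these marks at genes with both.

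Within gene bodies, H3K27ac-only peaks were denser in most endothelial lists than over all genes. Over all 21883 protein-coding genes 44711 H3K27ac-only peaks lay inside, 4.26 for each 100 kb of gene, and 15143 H3K4me3-only peaks, 1.44 for each 100 kb. The endothelial identity genes held 8.66 and 4.30, the venous and lymphatic genes 8.70 and 3.18, and the angiogenic growth genes 9.41 and 4.97. The arterial genes held 7.77 and 4.66, and the immediate-early genes, a short list in total length, 8.76 and 11.5. H3K4me3-only peaks too were denser than over all genes in these 5 lists, by a larger factor than H3K27ac-only peaks. The lung capillary genes, at 4.28 H3K27ac-only peaks, lay near the value of all genes. The developmental transcription factors held 1.41 H3K27ac-only and 4.08 H3K4me3-only peaks for each 100 kb, and the neuronal genes 1.52 and 1.47. H3K4me3-only peaks outnumbered H3K27ac-only ones in the developmental list, 29 to 10, and also in the immediate-early list, 17 to 13, and among the H3K4 methylation genes, 24 to 18. Among endothelial genes, Fli1, an ETS factor, held 22 H3K27ac-only peaks, Ets1 13, Emcn, the endomucin gene, 12, Flt1, a VEGF receptor, 11, and Kdr and Erg 10 each. Over all genes the most were found in Pde4d, a cAMP phosphodiesterase, with 96, followed by Arhgap26 with 81 and Nav2, another long gene, with 79. Pde4d had neither mark at its 1 listed start. It held 36 H3K4me3 peaks elsewhere in the gene, the widest a shared one of 1184 bp at 606 kb from that start.

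H3K27ac-only peaks inside the gene were also tied to the class of the start. They were present in 79.2% of genes with H3K27ac alone at the start, 59.1% of those with both, 39.3% of those with H3K4me3 alone and 19.4% of those with neither. For genes with H3K27ac alone, peaks at the start that lie in the gene are counted in this share. Median gene lengths were 13.4, 23.7, 19.7 and 7.59 kb, and the part of length in these shares was not tested.

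CpG content was highest at starts with both marks, and was similar at starts with H3K27ac alone and with neither. The ratio of observed to expected CpG over 300 bases, 250 before and 50 after each start, had a median of 0.775 at the 11800 starts with both marks and 0.587 at the 977 with H3K4me3 alone. It was 0.242 at the 1137 starts with H3K27ac alone and 0.201 at the 7348 with neither, against 0.567 over all 21262. A ratio above 0.6 was found at 74.5% of starts with both marks, 48.8% with H3K4me3 alone, 9.76% with H3K27ac alone and 10.2% with neither. GC content followed, with medians of 61.7%, 60.0%, 51.7% and 47.3%. At the 4 starts shown above, the ratio was 0.689 for Kdr, 0.692 for Dbn1, 0.124 for Gp9 and 0.215 for Ackr1. It is taken over the 300 bases, of which only the 250 before the start are printed. The ratio of Gp9 lay below the lower quartile of its class, 0.141, and the others lay between the quartiles of theirs. Starts with both marks did not always have a high ratio: it was 0.275 at that of Erg and 0.271 at that of Slc7a11.

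**Figure D5:**
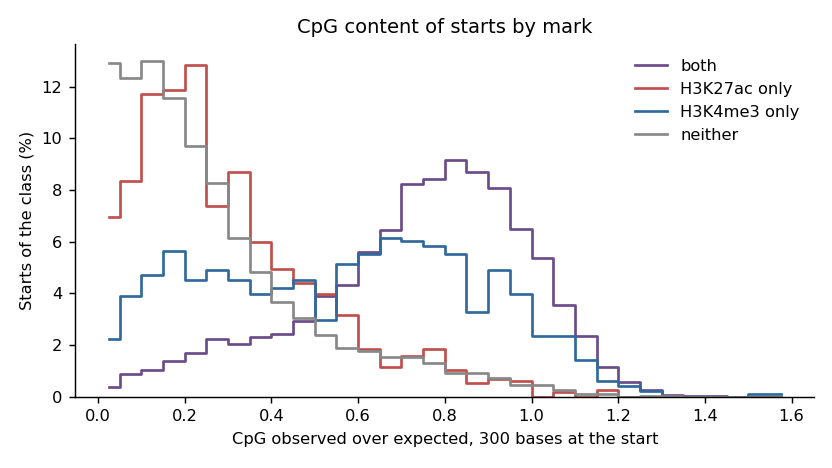
Distribution of the observed over expected CpG ratio (horizontal axis, bins of 0.05, the last bin holding all higher values) of starts with both marks, 1 mark or neither, as a share of the starts of the class (%, vertical axis). Starts with both marks have a median of 0.775, and those with H3K27ac alone, at 0.242, lie with those with neither; starts with H3K4me3 alone spread over both ranges.

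Short motifs differed between the classes as well. They were searched on both strands of the same 300 bases, and a match describes the letters alone. The GC box GGGCGG was present at 66.5% of starts with both marks, 51.1% with H3K4me3 alone, 23.7% with H3K27ac alone and 16.4% with neither, against 46.2% of all starts. The ETS motif CCGGAAGT was present at 8.51% of starts with both, against 1.43% with H3K4me3 alone, 1.495% with H3K27ac alone, 0.803% with neither and 5.15% of all. The AP-1 motif TGANTCA ran the other way, at 13.4% of starts with H3K27ac alone (11.4 to 15.5%), 9.95% with neither, 5.63% with H3K4me3 alone (4.27 to 7.26%) and 4.64% with both, against 6.99% of all. TATAAA, the TATA box, was present at 22.7% of starts with neither, 15.04% with H3K27ac alone, 9.83% with H3K4me3 alone and 6.32% with both, against 12.6% of all. CCAAT differed least, between 35.2% and 38.6% of every class. The first pair of motifs and the CpG ratio share base composition: GGGCGG and CCGGAAGT each contain CpG.

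Reads could be compared region by region only where an identifier of the table holds a single region. There were 381386 such regions, nearly all of the H3K14ac list, and they held 30.5% of H3K27ac, 6.80% of H3K4me3 and 29.6% of IgG reads. Reads were scaled to the total of each library, and 17856 regions had at least 10 reads over both marks. Of these, 88.7% had at least a 2-fold excess of either mark, 13350 (74.8%) of H3K27ac and 2491 of H3K4me3. At a gene start lay 51.3% of the regions with more H3K4me3 (49.3 to 53.3%) and 3.47% of those with more H3K27ac (3.16 to 3.79%). H3K27ac peaks overlapped 8.03% of the regions with more H3K27ac, against 9.78% of all 17856 and 16.0% of the regions with more H3K4me3. H3K4me3 peaks overlapped 27.5% of the regions with more H3K4me3, against 6.61% of all. Reads over regions of different identifiers were taken as dropped in the counting, so a region on a peak kept mainly reads beside that peak. These shares therefore cannot show whether the reads of a mark gather on its peaks. Placeable regions on peaks of neither list held 281243 CPM of H3K27ac and 283982 of IgG. The number with more H3K27ac rests on the scaling and the prior count: 92.2% of those regions had 0 H3K4me3 reads, with a median of 12 H3K27ac reads. Scaling to the reads of placeable regions, a shift of 2.17 on the log2 scale before the prior count, gave 12450 regions with more H3K27ac and 4269 with more H3K4me3. With that scaling and the same prior of 2 reads in both libraries, chosen after seeing the data, the numbers were 405 and 4831. Under that last setting 2.22% of the former and 36.8% of the latter lay at starts. Summed over all placeable regions, 44.1% of H3K4me3 reads lay at starts, against 4.54% of H3K27ac and 9.44% of IgG reads. The lists themselves had few placeable regions. The 220 of the H3K27ac list held 1452 H3K27ac and 52 H3K4me3 reads, and the 18 of the H3K4me3 list held 88 and 425.

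Single placeable regions give examples of both directions, of which that at Efnb2 alone lay at a gene start. The region with the most H3K27ac reads among those with an excess lay inside Ergic1 (chr17:26610512-26610649), with 88 H3K27ac and 0 H3K4me3 reads. That is at least 17.1-fold higher for H3K27ac with scaling to library totals and at least 3.81-fold higher with scaling to placeable reads, the floor set at 3 reads in this region. The next, inside Wdr73, had 85 and 0 reads. Inside Iqsec1, which encodes an activator of ARF GTPases, 73 H3K27ac and 4 H3K4me3 reads gave a 10.6-fold excess (95% exact binomial interval 3.98 to 40.1), or 2.37-fold with scaling to placeable reads. Inside Coro1c, a coronin gene, 83 H3K27ac and 12 H3K4me3 reads gave 4.03-fold, and 0.898-fold with the other scaling, which turns the direction. On the H3K4me3 side, 280 H3K4me3 and 56 H3K27ac reads lay at the start of Efnb2, the arterial ephrin ligand (chr8:8661020-8662035), an 8.57-fold excess (6.42 to 11.6), or 38.5-fold with scaling to placeable reads. Inside Slc38a2, a neutral amino acid transporter gene, 215 H3K4me3 and 12 H3K27ac reads gave a 30.7-fold excess (17.2 to 60.4), or 138-fold with the other scaling. Inside Dusp4, a MAP kinase phosphatase gene, the counts were 194 and 38. A region at the end of Spry2, a growth factor signalling inhibitor, had 266 H3K4me3 and 66 H3K27ac reads. The region with the most H3K4me3 reads, 384 against 116, lay outside genes at chr15:85674242-85674571. None of these regions held an IgG read. Except for that at Efnb2, they lay on no peak of the H3K27ac or H3K4me3 list.

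The balance of the lists was even across chromosomes apart from the Y. For each H3K4me3 peak there were between 1.87 and 2.29 H3K27ac peaks on chromosomes 1 to 19 and X. Chromosome Y had 33 H3K27ac and 78 H3K4me3 peaks, of which 16.7% of the H3K4me3 ones were shared. The part of repeated sequence and of read mapping there was not tested.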

How the data were processed

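The authors deposited 1 table of raw read counts for 578465 identifiers in 9 ACT-seq libraries, 1 per target. Per the file headers, counts were made with featureCounts 2.0.6. The submitters' processing notes name STAR and MACS2 and the builds mm10 and GRCm38.p6; aligner and peak caller settings are not stated there. The table joins 8 peak lists under shared identifiers. The lists were separated by genome order and the narrowest width of each (0 identifiers out of order; 2630 regions moved against order alone), and each was named by the library densest in it, fitted by non-negative least squares. This assignment was not checked against the authors' own peak lists, and every peak count rests on it. Peaks were called shared at 1 or more common bases. Gene starts came from RefSeq promoters of GRCm38.p6, with windows of 2 kb; genes without one were read at both ends. Read ratios used a prior count of 2. With 1 library per mark no count model was fitted. Members and gene lists were chosen with earlier results of these data known. For each of 18 gene lists the genes named are the 2 most covered and the largest difference each way, and over all genes the 5 largest differences each way, with Cdh5, Pecam1, Kdr, Erg, Slc7a11, Ep300 and Kmt2d always; further list members serve as examples. The separation and overlap code was tested on simulated data. Python 3.11.15, NumPy 2.4.6, pandas 2.3.3 and SciPy 1.17.1 were used.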

Additional observations from a re-analysis of the deposited data

How the results depend on the processing

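Of the comparisons of numbers and medians with other settings, 62 of 88 stayed within 1.5 times or within the interval of the median and 26 did not. Of 155 such comparisons for the other gene lists and for 7 genes, 15 moved further. Pecam1 fell from 784 bp of H3K27ac and 1457 bp of H3K4me3 to 284 and 411 bp with windows of 1 kb, and Erg from 461 and 743 to 133 and 457 bp; with 5 kb, Erg had 942 and 1550 bp and Pecam1 1304 bp of H3K27ac. With 1 kb, H3K4me3 covered 1165 bp at Cdh5 and 1475 bp at Kmt2d. With an overlap of at least 50% of the shorter peak, the median width was 322 bp for shared H3K27ac and 390 bp for shared H3K4me3 peaks. With peaks of minimum width left out, the medians were 353 bp for shared H3K27ac, 202 bp for H3K27ac-only, 636 bp for shared H3K4me3 and 281 bp for H3K4me3-only peaks. The H3K4me3-only peaks at gene starts then numbered 1697, the genes with H3K4me3 alone 375, and the developmental transcription factors with H3K4me3 alone 3. The median CpG ratio then was 0.786 with both marks, 0.697 with H3K4me3 alone and 0.214 with neither. With windows of 1 kb, 1615 H3K27ac-only peaks lay at starts, and the CpG ratio was 0.786 with both marks and 0.259 with H3K27ac alone; with 5 kb, 6372 H3K27ac-only peaks did. With at least 200 covered bases, 539 genes had H3K27ac alone and 3 developmental transcription factors had H3K4me3 alone. The separation by order alone moved no number past 1.5 times.

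Placeable regions with more H3K27ac and with more H3K4me3 numbered 1924 and 1388 at 20 or more reads, and 92249 and 5030 with no minimum. At a ratio of 4, 1477 had more H3K4me3. With scaling to placeable reads 4269 had more H3K4me3, and with an equal prior count as well, added after seeing the data, 405 had more H3K27ac and 4831 more H3K4me3. The number of placeable regions that lean to H3K27ac is therefore not a stable quantity, while the larger share of starts on the H3K4me3 side was found under each of the 3 scalings.

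The depth of 1 library per mark limits every value, and width at the minimum limits the H3K4me3-only class.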
